A study of Mus musculus with 6 samples.

Results

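Smooth muscle cells of the aortic wall contract with a set of proteins that slide actin filaments along myosin filaments. The transcripts of 10 such genes, Acta2, Actg2, Myh11, Tagln, Cnn1, Smtn, Lmod1, Myl9, Mylk and Myl6, were examined in aortas of mice heterozygous for Palmd and of wild-type mice. They were taken by symbol from the 29752 genes of the deposited files, and all 10 were found and passed the filter on low values that 12620 genes passed. The Palmd product, palmdelphin, belongs to the paralemmin family. There were 3 libraries from Palmd+/- mice and 3 from wild-type mice, all of the strain C57BL/6, aged 15 weeks; feeding on the normal diet began at 8 weeks of age and lasted 7 weeks. The labels do not describe the Palmd allele, and they do not say whether each library came from its own animal, so every p-value here measures the spread between these libraries, which may be technical.

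In the contractile cell, smooth muscle actin forms the thin filaments and smooth muscle myosin the thick filaments. Each myosin molecule holds heavy chains, regulatory light chains and essential light chains. When calcium rises, calmodulin switches on myosin light chain kinase, which phosphorylates the regulatory light chain and allows the myosin head to pull on actin. A phosphatase removes that phosphate, and the kinases Rock1 and Rock2 restrain the phosphatase. Calponin, transgelin, smoothelin and leiomodin bind actin filaments. Many of these genes are switched on together by serum response factor and its partner myocardin, which act through a short DNA element called the CArG box. In large arteries a high level of these transcripts is the usual sign of contractile, as opposed to matrix-producing, smooth muscle cells.

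The values, calculated by the authors and written FPKM, are reads scaled by gene length and by library depth. The libraries were of similar depth: between 17283951 and 18263324 reads stood behind the heterozygote values and between 18009030 and 18372131 behind the wild-type values. For Palmd itself the FPKM values of replicates 1 to 3 were 5.31, 7.19 and 6.21 in heterozygotes, against 5.49, 7.88 and 10.1 in wild type. The groups overlapped, and since reads from an altered allele can count towards the gene, these values do not check the genotype. The libraries were labelled as aorta, and the 10 contractile transcripts together took 1.98% to 4.55% of all FPKM in the heterozygote libraries and 2.88% to 4.26% in the wild-type libraries. One library, heterozygote replicate 2, stood apart: its white adipocyte markers were the highest and all 10 contractile transcripts were the lowest of the 6 libraries. The fold changes of Acta2, Myl9 and Myh11 and the count of ratios without overlap are therefore also given without it. Fold changes of genes outside the 10 rest on all 6 libraries.

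The smooth muscle actins differed widely in level. Acta2 (ENSMUSG00000035783, GRCm38 chromosome 19, 34241090 to 34255590, minus strand), the alpha actin of vascular smooth muscle, was the highest of the 10. In replicates 1 to 3, the order of all values below, it had 8012, 3701 and 8367 FPKM in heterozygotes, against 8235, 7252 and 5866 FPKM in wild type. Its lowest and its highest library were both heterozygotes, and the groups overlapped. Actg2 (ENSMUSG00000059430, chromosome 6, 83512905 to 83536265, minus strand), the gamma actin best known from visceral smooth muscle, was at 130.1, 68.1 and 135.9 FPKM in heterozygotes, against 125.7, 126.4 and 98.7 FPKM in wild type. The groups overlapped there as well, and the ratio of Actg2 to Acta2 averaged 0.0170 ± 0.00125 in heterozygotes and 0.0165 ± 0.00111 in wild type (SD, n = 3 each). The coding sequences of both actins in GENCODE release M21 were 84.4% identical, with 176 differing bases, and no stretch longer than 29 bases was shared in full. The start of each coding sequence is shown because reads are assigned to one actin or the other by such differences, which stand in capitals:

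Acta2: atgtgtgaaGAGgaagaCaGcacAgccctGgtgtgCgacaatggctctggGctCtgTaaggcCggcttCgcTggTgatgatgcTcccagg
Actg2: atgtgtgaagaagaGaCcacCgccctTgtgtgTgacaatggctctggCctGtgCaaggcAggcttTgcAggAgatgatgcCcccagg

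In these 90 bases of Acta2 and 87 bases of Actg2 the capitals mark 16 bases of Acta2 and 13 of Actg2, including 1 run of 3 bases present only in Acta2. The sources used here do not say how the authors' counting treated reads that match more than 1 actin.

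Myosin subunits and the kinase gene Mylk are given next, whatever their level. Myl9 (ENSMUSG00000067818, chromosome 2, 156775420 to 156781658, plus strand), the regulatory light chain that the kinase phosphorylates, was at 2408, 1256 and 2562 FPKM in heterozygotes, against 1919, 1853 and 1372 FPKM in wild type. Myh11 (ENSMUSG00000018830, chromosome 16, 14194535 to 14291372, minus strand), the smooth muscle myosin heavy chain, was at 1166, 612 and 1059 FPKM in heterozygotes, against 974.2, 824.6 and 623.5 FPKM in wild type. In both genes heterozygote replicates 1 and 3 were above all 3 wild-type libraries and heterozygote replicate 2 was below them, so the groups overlapped. Myl6 (ENSMUSG00000090841, chromosome 10, 128490860 to 128494145, minus strand), the essential light chain shared by smooth muscle and non-muscle myosins, was at 558.3, 341 and 567 FPKM in heterozygotes, against 516.6, 495.1 and 417.2 FPKM in wild type. Mylk (ENSMUSG00000022836, chromosome 16, 34745210 to 35002420, plus strand), the gene of myosin light chain kinase, was at 124.7, 72.0 and 109.6 FPKM in heterozygotes, against 131.5, 101.0 and 86.3 FPKM in wild type. Neither Myl6 nor Mylk separated the groups.

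The actin-binding members covered a wide range. Cnn1 (ENSMUSG00000001349, chromosome 9, 22099216 to 22109630, plus strand), which encodes basic calponin, was at 428.9, 203.4 and 435.2 FPKM in heterozygotes, against 430.3, 386.7 and 332.6 FPKM in wild type. Smtn (ENSMUSG00000020439, chromosome 11, 3517523 to 3540612, minus strand), which encodes smoothelin, was at 218.2, 121.9 and 185.5 FPKM in heterozygotes, against 173.9, 173.5 and 138.2 FPKM in wild type. Lmod1 (ENSMUSG00000048096, chromosome 1, 135324807 to 135368065, plus strand), whose product leiomodin 1 nucleates actin filaments, was at 124.2, 80.1 and 127.7 FPKM in heterozygotes, against 123.2, 123.3 and 98.9 FPKM in wild type. All 3 genes had overlapping groups, and heterozygote replicate 2 was the lowest library for each.

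Tagln (ENSMUSG00000032085, chromosome 9, 45929619 to 45936058, minus strand), which encodes transgelin or SM22-alpha, was listed far below the other members. It stood at 3.20, 2.13 and 4.16 FPKM in heterozygotes, against 4.29, 3.78 and 3.02 FPKM in wild type, which rested on 73 to 156 reads a library. For Cnn1 the reads numbered 9618 to 21746. Of the 1988 exonic bases of Tagln in GENCODE M21, 67.9% were also exonic in other annotated genes, mainly in the antisense gene Gm48529 on the opposite strand, which shared 1241 of them. The kit is not described as keeping strand, so reads of overlapping genes cannot be told apart there, and the sources used here do not say how the authors assigned such reads. The part of this overlap in the low value was not tested, and every ratio to Tagln below is limited by it. For Smtn 16.3% and for Mylk 6.85% of the exonic bases were shared, and for the other 7 members 0.

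**Figure D1:**
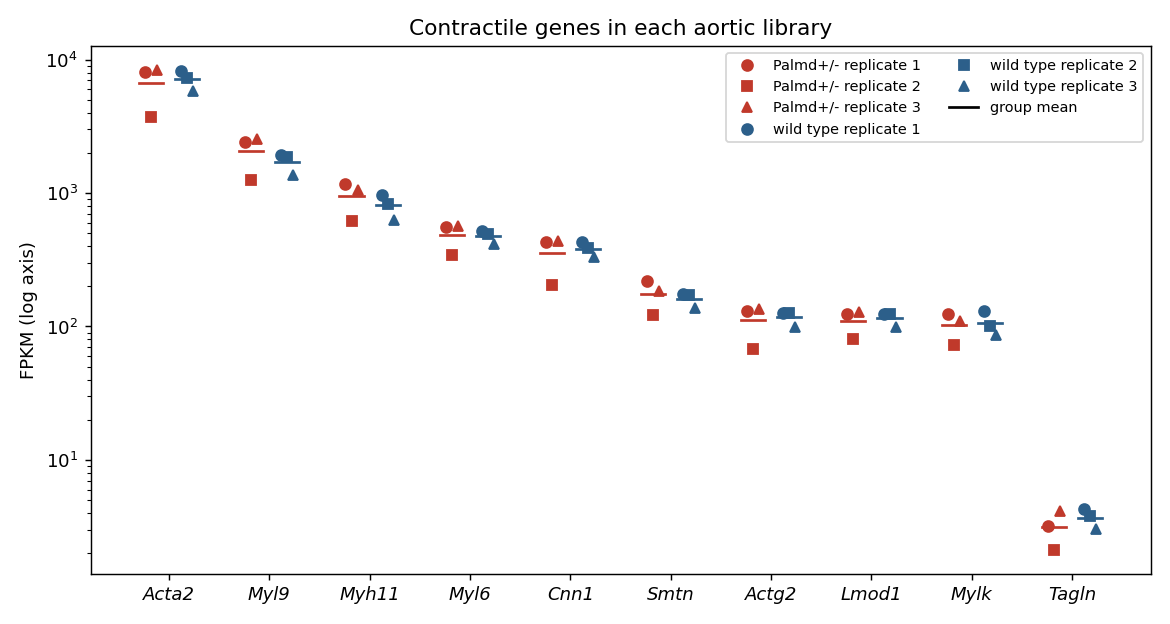
FPKM of the 10 contractile genes on a log axis, with 1 point per library, heterozygotes left of wild type for each gene, and bars for the group means. Acta2 runs from 3701 to 8367 FPKM and Tagln from 2.13 to 4.29 FPKM, and in every gene the lowest point is heterozygote replicate 2.

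By FPKM the order was Acta2, Myl9, Myh11, Myl6, Cnn1 and Smtn, and each of these was above the next in 6 of 6 libraries. Below Smtn, the levels of Lmod1, Actg2 and Mylk could not be ordered. Lmod1 was above Actg2 in 2 of 6 libraries, and Actg2 was above Mylk in 4 of 6. Tagln was last in every library. The order depends on the gene length by which reads were divided. For 7 members whole reads came out with the exon union of GENCODE M21, and for the other 3 the values were whole with shorter lengths, 1781 in place of 2196 bases for Acta2, 6632 in place of 7599 for Myh11 and 10159 in place of 11263 for Mylk. Myl6 was divided by 3187 bases, although its principal transcript has 665. Per base of the principal transcript, Myl6 averaged 2313 FPKM instead of 482.5 and stood above Myl9, at 1952 FPKM, in 6 of 6 libraries. Comparisons between the groups do not depend on this length, since it is the same in all libraries.

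No contractile gene passed the test between heterozygotes and wild type. In limma on log2(FPKM + 1), with Benjamini-Hochberg adjustment over the 12620 genes tested, 0 of 10 members passed at an adjusted p of 0.05, and 0 of all genes tested (0%). At an unadjusted p under 0.05, limma had 820 genes and limma voom on recovered reads 815 of 12611, and 0 members were among those of the first. Groups without overlap in FPKM were found for 0 of 10 members, while 12.9% of all tested genes had them (7.8% higher and 5.12% lower in heterozygotes). Of the members 4 were higher and 6 lower in heterozygotes, with a median log2 fold change of -0.08, against 0.01 over all genes tested. Fold changes are on the log2(FPKM + 1) scale, which understates changes of low genes such as Tagln.

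The intervals were wide. For Acta2, with 6694 ± 2598 FPKM in heterozygotes and 7117 ± 1190 FPKM in wild type (SD, n = 3 each), limma estimated a log2 fold change of -0.17 (95% interval -1.24 to 0.91, SE 0.45, adjusted p = 0.978). For Myl9, with 2075 ± 714 FPKM in heterozygotes and 1715 ± 298 FPKM in wild type, it was 0.22 (interval -0.64 to 1.09, SE 0.36, limma adjusted p = 0.958). For Myh11, with 946 ± 294 FPKM in heterozygotes and 807 ± 176 FPKM in wild type, it was 0.20 (interval -0.58 to 0.98, SE 0.32, limma adjusted p = 0.958). The other 7 members had log2 fold changes between -0.20 (Tagln) and 0.08 (Smtn), with limma adjusted p between 0.933 and 1.00. These intervals include changes in either direction for all 10 members, so no direction of change was resolved with these libraries. The SE ran from 0.21 (Tagln) to 0.45 (Acta2), and the size of change that could be detected is not given here. Without heterozygote replicate 2, Myl9 was 0.55 and Myh11 0.48 higher on the log2 scale and Acta2 turned to 0.22, and limma adjusted p was 0.333 for Myl9 and 0.381 for Myh11.

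What the members shared was their pattern over the libraries. All 10 were lowest in heterozygote replicate 2 and second lowest in wild-type replicate 3, whereas 34.3% of all tested genes were lowest in heterozygote replicate 2. Heterozygote replicate 2 had between 0.452 (Acta2) and 0.636 (Lmod1) times the mean of the other heterozygote libraries. Summed over the 10 genes, the libraries had 13174, 6458 and 13553 FPKM in heterozygotes, against 12633, 11339 and 9036 FPKM in wild type. The difference within each group was thus larger than the difference between the groups.

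Markers of other cells also differed between the libraries, and those of white adipocytes ran opposite to this pattern. The mean log2 level of 12 white adipocyte markers was 5.72, 7.99 and 6.28 in heterozygotes, against 6.43, 6.81 and 7.42 in wild type. Within the heterozygotes and within the wild-type libraries alike, the library with the highest adipocyte level had the lowest contractile level. All 12 of 12 white adipocyte markers were highest in heterozygote replicate 2, and their summed level ran from 1663 to 6242 FPKM in heterozygotes and from 2048 to 4559 FPKM in wild type. The summed level of 8 brown adipocyte markers ran from 82.4 to 1330 FPKM in heterozygotes and from 247.5 to 1069 FPKM in wild type, and none of the 8 was at 0 in all libraries. Endothelial markers summed to 824.3, 280.1 and 791.3 FPKM in heterozygotes, against 883, 811 and 809 FPKM in wild type. Of these 10 genes, 8 were lowest in heterozygote replicate 2. Of 7 tested Schwann cell and nerve markers, 6 were highest there. Macrophage markers summed to 386.1, 385.3 and 513.4 FPKM in heterozygotes, against 353.9, 449.5 and 437.1 FPKM in wild type. Fibroblast markers summed to 5291, 4448 and 6204 FPKM in heterozygotes, against 3756, 4566 and 4627 FPKM in wild type. Higher in heterozygotes were 10 of these 12 genes, and 0 passed in limma. Col1a1 and Col3a1, 2 of the 12, had groups without overlap, against 12.9% of all tested genes. Of 18 other tested markers of aortic smooth muscle, 14 were lowest in heterozygote replicate 2 and 3 highest there. Mitochondrially encoded transcripts took 10.5%, 22.1% and 12.4% of all FPKM in heterozygotes, against 13.4%, 16.1% and 16.5% in wild type. The part of fat, of mitochondrial transcripts and of the libraries themselves in the contractile levels was not tested. In whole aorta, fewer smooth muscle cells and less RNA per cell cannot be told apart.

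**Figure D2:**
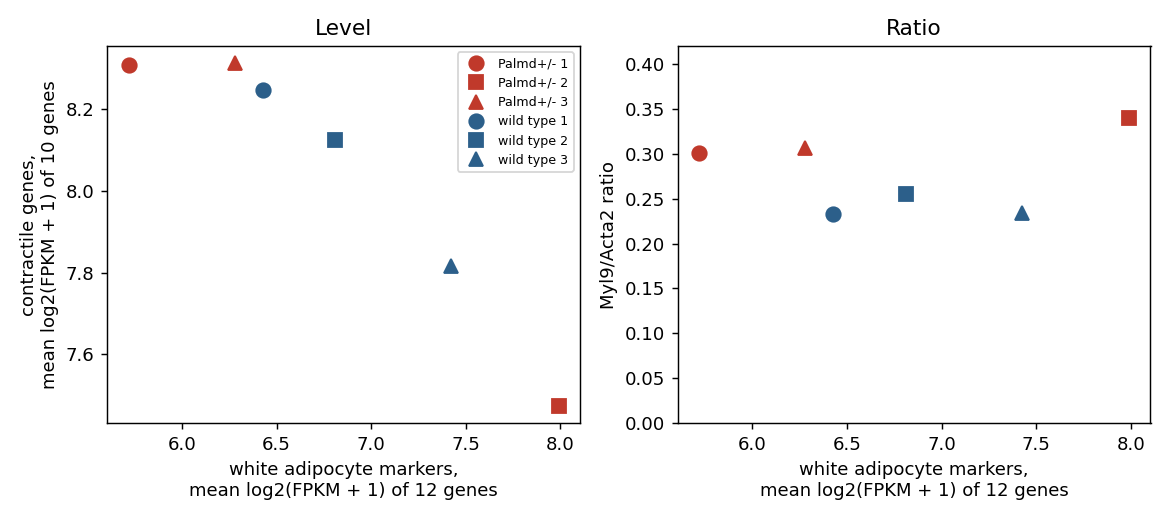
Left, mean log2 level of the 10 contractile genes plotted against the mean log2 level of the white adipocyte markers, with 1 point per library. Right, the ratio of Myl9 to Acta2 on the same horizontal axis. On the left, heterozygote replicate 2 has the lowest contractile level, 7.47, at the highest adipocyte level, 7.99. On the right, all 3 heterozygote points lie above the 3 wild-type points.

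A ratio of 2 genes within a library is free of the library's scaling. The 45 ratios between members varied little: their SD over the 6 libraries on the log2 scale ran from 0.05 to 0.31, with a median of 0.17, whereas the median was 0.40 over the 74691 pairs of genes that averaged at least 100 FPKM. The steadiest was Acta2 to Cnn1, with 18.7, 18.2 and 19.2 in heterozygotes, against 19.1, 18.8 and 17.6 in wild type. It differed by at most 1.09-fold between any libraries, although the level of Acta2 itself ranged from 3701 to 8367 FPKM.

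Myl9 and Myh11, but not the third myosin subunit Myl6, had ratios to Acta2 that did not overlap between the groups. The ratio of Myl9 to Acta2 was 0.301, 0.339 and 0.306 in heterozygotes, against 0.233, 0.256 and 0.234 in wild type. All heterozygote values lay above all wild-type values, with means of 0.315 ± 0.0210 in heterozygotes and 0.241 ± 0.0127 in wild type (SD, n = 3 each), a 1.31-fold difference (exact two-sided permutation p = 0.1). An exact test of 3 libraries against 3 cannot give a p below 0.1, so none of these ratios could pass a threshold of 0.05, and the 45 were not corrected for their number. The ratio of Myh11 to Acta2 was 0.146, 0.165 and 0.127 in heterozygotes, against 0.118, 0.114 and 0.106 in wild type. Here too the groups did not overlap, with a 1.29-fold difference between the group means on the log2 scale (exact p = 0.1). Myl9 to Myh11, both myosin subunits, was 2.07, 2.05 and 2.42 in heterozygotes, against 1.97, 2.247 and 2.201 in wild type, which overlapped (1.02-fold, exact p = 0.8). The ratio of Myl6 to Acta2 was 0.0697, 0.0921 and 0.0678 in heterozygotes, against 0.0627, 0.0683 and 0.0711 in wild type, and the groups overlapped (1.13-fold, exact p = 0.5). They also overlapped for Myl6 to Actg2 (1.10-fold, exact p = 0.2).

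Both ratios to Acta2 were highest in heterozygote replicate 2, the library with the highest adipocyte marker level. With 1 library left out at a time, which cannot turn the sign of a ratio whose groups are apart, the log2 difference ran from 0.33 to 0.43 for Myl9 to Acta2 and from 0.27 to 0.46 for Myh11 to Acta2. Among the wild-type libraries, replicate 3 had the highest adipocyte level and the lowest ratio of Myh11 to Acta2. For Myl9 to Acta2 the lowest wild-type value, 0.233, was in replicate 1, which had the lowest adipocyte level of that group, and replicate 3 was at 0.234. The part of the adipocyte level in these ratios was not tested.

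**Figure D3:**
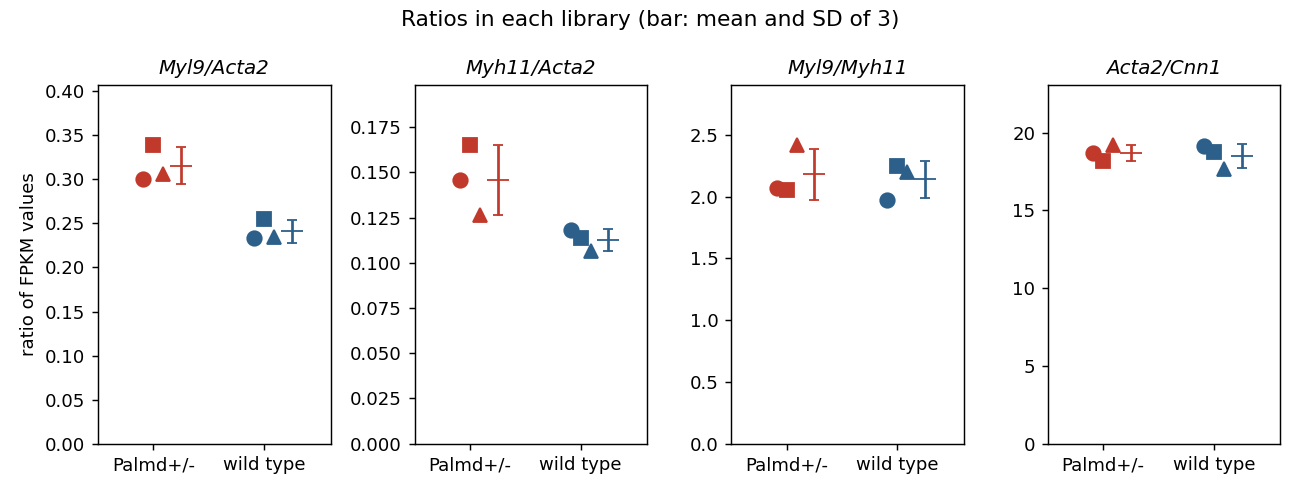
Ratios of FPKM between 2 contractile genes in each library, heterozygotes left of wild type, with bars for the group means. For Myl9 to Acta2 and Myh11 to Acta2 the groups do not overlap, and for Myl9 to Myh11 and Acta2 to Cnn1 they do.

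Most, but not all, of the remaining ratios of Myl9 and Myh11 had groups apart. Myl9 was 1.32-fold higher against Cnn1 and 1.23-fold higher against Lmod1 in heterozygotes, without overlap of the groups. Against Actg2 it stood at 18.5, 18.4 and 18.9 in heterozygotes and 15.3, 14.7 and 13.9 in wild type, 1.27-fold higher. Myh11 was 1.30-fold higher against Cnn1, 1.25-fold against Actg2 and 1.21-fold against Mylk, again with no overlap. Against Tagln, with its few reads, Myl9 was 1.40-fold and Myh11 1.38-fold higher. The groups overlapped for the other 3 ratios of Myh11: 1.21-fold against Lmod1, 1.08-fold against Smtn and 1.14-fold against Myl6. For Myl9 they overlapped against Smtn (1.10-fold, exact p = 0.5), Mylk (1.23-fold, exact p = 0.2) and Myl6 (1.16-fold, exact p = 0.3). The ratios of Myl6 to Cnn1 (1.14-fold), Smtn to Lmod1 (1.12-fold) and Myl6 to Lmod1 (1.06-fold) were also higher in all 3 heterozygote libraries than in all wild-type libraries. Without heterozygote replicate 2, the log2 difference of Myl6 to Cnn1 fell from 0.19 to 0.07. That of Smtn to Lmod1 went from 0.16 to 0.18 and that of Myl6 to Lmod1 from 0.09 to 0.11.

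In all, 13 of the 45 ratios had groups that did not overlap (28.9%), against 14.3% of all 79625890 pairs of tested genes and 13.9% of the pairs of genes with at least 100 FPKM. Of the 17 ratios that hold Myl9 or Myh11, 10 did not overlap, and of the 28 without them, 3. The 45 ratios share their 10 genes and are not independent, so the 13 are not 13 separate results. Leaving out Tagln, chosen after its values were seen, gave 11 of 36 (30.6%). With 1 library left out, groups of 3 and 2 are apart more often. Without heterozygote replicate 1, 2 or 3, the number apart was 13 (28.9%), 18 (40%) and 22 (48.9%), against 26.2%, 33.5% and 21.8% of all gene pairs. Without wild-type replicate 1, 2 or 3, it was 16 (35.6%), 17 (37.8%) and 15 (33.3%), against 24.7%, 19.8% and 20.3%. The share over all gene pairs was thus close to that of the members without heterozygote replicate 1.

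**Figure D4:**
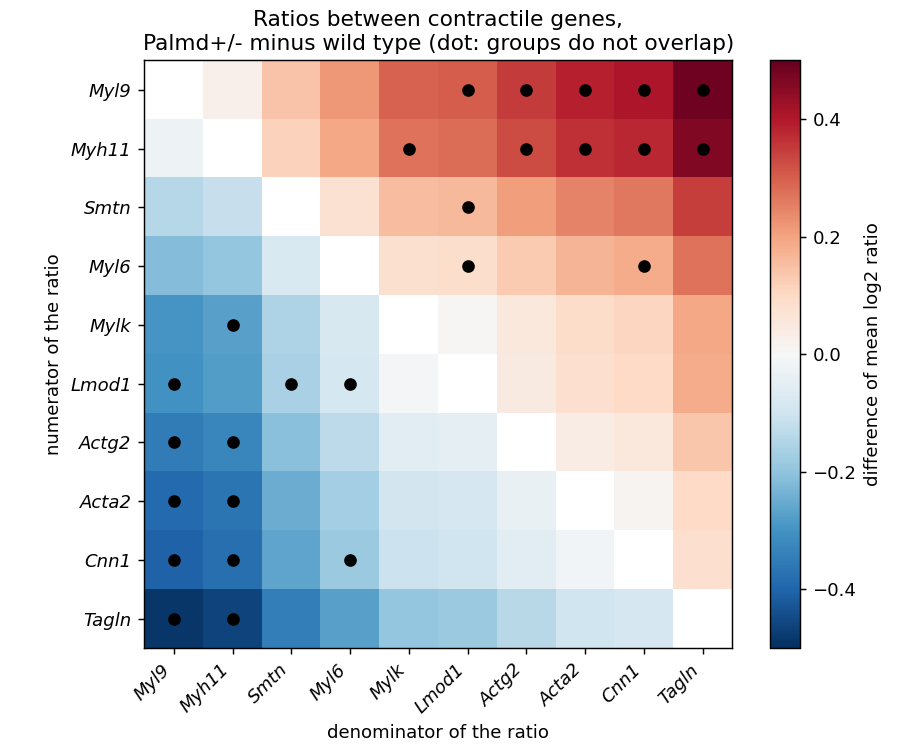
Log2 difference between heterozygotes and wild type in the ratio of each row gene to each column gene, with marked squares where the 3 heterozygote ratios all lie on one side of the 3 wild-type ratios. The rows of Myl9 and Myh11 hold 10 of the 13 marked pairs, all of them higher in heterozygotes.

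Seen as shares of the summed FPKM of the 10 genes, Acta2 made up 60.8%, 57.3% and 61.7% in heterozygotes, against 65.2%, 64.0% and 64.9% in wild type. Myl9 made up 18.3%, 19.5% and 18.9% in heterozygotes, against 15.2%, 16.3% and 15.2% in wild type. Myh11 made up 8.85%, 9.48% and 7.81% in heterozygotes, against 7.71%, 7.27% and 6.90% in wild type. The groups were apart for all 3, and also for Cnn1 and Tagln, both lower in heterozygotes. That is 5 of 10 members, against 5.33% of all tested genes when each is set against the same sum, although the members are part of that sum and their shares depend on one another. Set against the mean log2 level of the other 9 members, Myl9 was 0.29 and Myh11 0.26 higher, Cnn1 0.16 and Tagln 0.25 lower on the log2 scale, each without overlap (exact p = 0.1), and the other 6 overlapped. Over all tested genes, 6.91% had groups apart when set against the mean of the 10. With every library shifted to the same mean contractile level, an alternative chosen after seeing the data, 0 of 12620 genes passed in limma (0%), and Myl9 had a log2 fold change of 0.25 and Myh11 of 0.23 (limma adjusted p = 1.00 for both).

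The ratios do not tell whether Myl9 and Myh11 were higher or the members they were set against were lower. Against Acta2 as a common denominator, 4.35% of all other tested genes were higher in heterozygotes without overlap and 1.47% lower. Against Myl9, 0.618% were higher and 7.69% lower, and against Myh11, 0.824% and 7.36%.

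**Figure D5:**
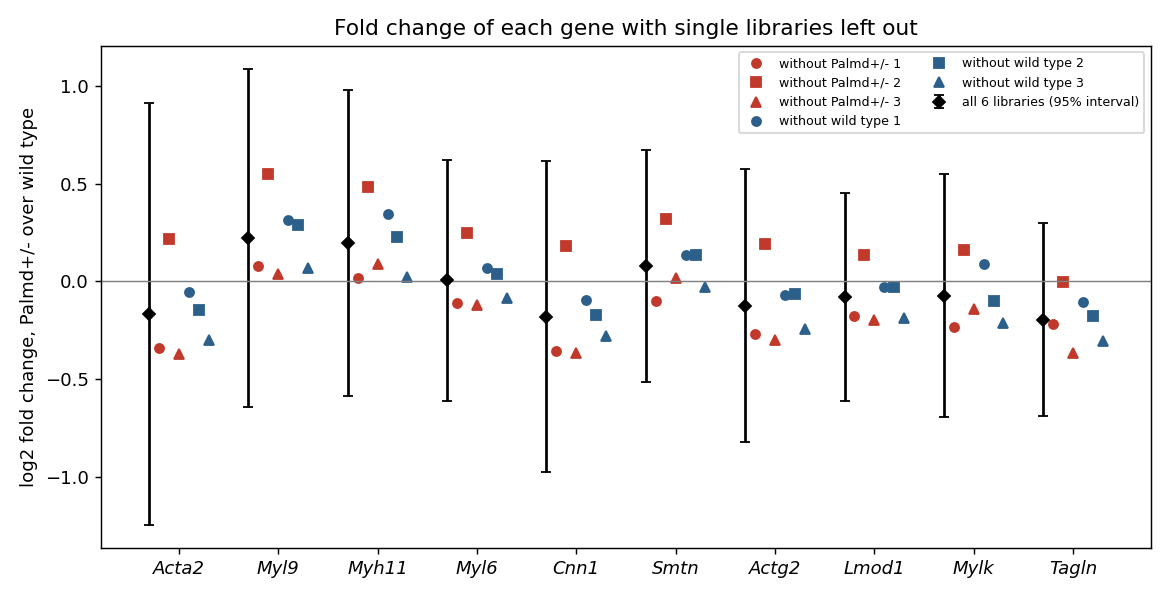
Log2 fold change, heterozygote minus wild type, of each contractile gene with all 6 libraries and without each library in turn. The values without heterozygote replicate 2 are the highest for each gene, 0.55 for Myl9 and 0.48 for Myh11, and Acta2 runs from -0.37 to 0.22.

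The promoters of these genes were read for CArG boxes, since the members moved together over the libraries. A CArG box is 10 bases long, with CC at its start, GG at its end and only A or T between them, and the pattern is the same on both strands. A box with G or C at 1 of the middle positions was counted separately. RefSeq promoter windows on GRCm38.p6, from 250 bases before to 50 after each start, were found for 7 of the 10 members, with 8 windows; Actg2, Myh11 and Tagln had none. Over all 32851 windows, 1.63% held a full box, 8.5% a box with 1 deviation, and 0.822% at least 2 of either kind. The window of Myl9 held a full box beginning 161 bases before the RefSeq start and a box with 1 deviation beginning 99 bases before it. GENCODE M21 begins the gene earlier, at 156775420, and the sequence shown ends at the base before that. Its upstream sequence is shown because Myl9 had the largest ratio differences apart from those to Tagln, with both boxes in capitals (chr2:156775264-156775419, plus strand):

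Myl9: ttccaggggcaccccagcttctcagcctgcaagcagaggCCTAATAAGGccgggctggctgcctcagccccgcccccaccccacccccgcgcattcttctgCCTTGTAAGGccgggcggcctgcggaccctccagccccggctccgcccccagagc

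The window of Acta2 held 2 boxes with 1 deviation, CCCTATATGG beginning 84 bases and CCTTGTTTGG beginning 34 bases before the RefSeq start (minus strand). GENCODE M21 begins the gene further upstream, so that both lie within exon 1 of one of its transcripts (chromosome 19, 34255290 to 34255590). A full box, CCTTATATGG, began 50 bases before 1 of the 2 starts of Myl6. The windows of Lmod1, Cnn1, Smtn, Mylk and the other start of Myl6 held none. These matches describe the letters in these windows and are not shown to be bound.

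Relatives of the members in non-muscle cells were set beside them, in 15 pairs chosen after values were seen. Myh11 to Myh9, a non-muscle myosin heavy chain, was 13.8, 13.1 and 13.9 in heterozygotes, against 10.1, 9.81 and 7.64 in wild type. The groups did not overlap, with 13.6 ± 0.459 in heterozygotes and 9.18 ± 1.34 in wild type (SD, n = 3 each; log2 difference 0.57, exact p = 0.1). Myl9 to Myl12a, a closely related light chain, was 19.7, 17.4 and 19.5 in heterozygotes, against 16.5, 16.8 and 12.6 in wild type, also without overlap (log2 difference 0.31). The other 13 pairs overlapped. The 2 of 15 pairs apart are close to the 14.3% of all gene pairs, so nothing particular to these pairs is read from them. Among the overlapping pairs, Myh11 to Myh10, the other main non-muscle heavy chain, averaged 19.1 ± 1.79 in heterozygotes and 17.9 ± 2.61 in wild type, and Acta2 to Actb, beta actin, 10.4 ± 1.98 in heterozygotes and 9.89 ± 0.976 in wild type. Cytoplasmic gamma actin, Actg1, was at 269.3, 165.7 and 262.5 FPKM in heterozygotes, against 271.7, 309.2 and 301.6 FPKM in wild type, lower in all 3 heterozygotes (log2 fold change -0.37, limma adjusted p = 0.861). It was the only 1 of 19 tested relatives whose groups did not overlap in FPKM, against 12.9% of all tested genes.

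Other genes of the contractile machinery were counted from lists drawn up with earlier results of these data known. Of 18 partners of the thin filament and the dense bodies, which anchor actin in smooth muscle, 0 passed in limma, 4 were higher and 14 lower in heterozygotes, and the median log2 fold change was -0.07. Of these, 17 were lowest in heterozygote replicate 2, as the members were. The Z-line proteins Pdlim3 and Ldb3 had the smallest p, with log2 fold changes of -0.33 and -0.32 (limma adjusted p = 0.924 for both), followed by vinculin (Vcl, -0.22), caldesmon (Cald1, -0.17), talin (Tln1, -0.14) and alpha-actinin 1 (Actn1, -0.20).

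Of 18 tested genes that switch the phosphate on the regulatory light chain on or off, 0 passed, 7 were higher and 11 lower, and genes whose groups did not overlap included Rock2, Rhoa and Calm2. Rock2, which restrains the phosphatase, was at 19.1, 10.2 and 15.6 FPKM in heterozygotes, against 23.4, 19.1 and 19.9 FPKM in wild type (log2 fold change -0.49, limma adjusted p = 0.781). Rhoa, the GTPase that activates it, was at 37.8, 32.0 and 37.6 FPKM in heterozygotes, against 40.6, 41.8 and 42.9 FPKM in wild type (log2 fold change -0.22, limma adjusted p = 0.811). Both were below wild type in all heterozygote libraries, for Rock2 by a narrow margin (19.12 FPKM in heterozygote replicate 1 and 19.13 FPKM in wild-type replicate 2), and neither passed. Calm2, a calmodulin gene, was at 234.3, 231.3 and 252.3 FPKM in heterozygotes, against 218.4, 198.4 and 198.1 FPKM in wild type, above it in all 3 (log2 fold change 0.22, limma adjusted p = 0.861). Arhgef1 (0.18), Rock1 (-0.46) and Arhgef12 (-0.18) overlapped.

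Among 16 transcriptional regulators, 0 passed, with 8 higher and 8 lower. Tcf21, a factor of fibroblast and coronary smooth muscle lineages, was at 2.77, 2.54 and 3.38 FPKM in heterozygotes, against 1.37, 1.65 and 1.82 FPKM in wild type (log2 fold change 0.57, limma adjusted p = 0.549). Prdm6, a repressor active in smooth muscle, was at 17.8, 13.2 and 18.5 FPKM in heterozygotes, against 13.1, 13.0 and 10.6 FPKM in wild type (log2 fold change 0.40, limma adjusted p = 0.753). Tead1 was at 5.33, 5.13 and 4.57 FPKM in heterozygotes, against 7.77, 6.23 and 6.63 FPKM in wild type (log2 fold change -0.39, limma adjusted p = 0.616). The groups of these 3 factors did not overlap, and they and Nfatc1 (-0.38) were the 4 with an unadjusted p under 0.05. Over all 12620 tested genes, 12.9% had groups without overlap and 820 had an unadjusted p under 0.05. Hmgb2 (-0.57) and Klf4, a repressor of contractile genes (-0.70), overlapped. Klf4 was at 102.8, 30.9 and 83.4 FPKM in heterozygotes, against 98.6, 112.8 and 105.4 FPKM in wild type. Serum response factor, Srf, and myocardin, Myocd, named for their role and outside the rule of smallest p, had log2 fold changes of -0.01 and -0.30 (limma adjusted p = 0.999 and 0.953).

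The profile of the members over the 6 libraries was compared with those of 3749 genes that varied at least as much. The measure was the root mean square difference between centred log2 profiles. The members lay at 0.056 (Myl6) to 0.148 (Tagln) from their own mean, and the median gene at 0.501. The nearest other genes were Tmem63a (0.032), Lamb2 (0.032), Marveld1 (0.033), Adamts10 (0.035), Qsox1 (0.038), Lhfp (0.045), Efhd1 (0.046) and Ccdc120 (0.047). Lamb2, a chain of basement membrane laminin, was at 239.8, 126.7 and 237.2 FPKM in heterozygotes, against 217.1, 207.4 and 162.2 FPKM in wild type. As close as the farthest member were 9.82% of the candidates, and many genes of this tissue thus had a profile of this kind.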

How the data were processed

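RNA of 6 aorta samples was sequenced after selection on poly-T beads, per the labels' protocols. The deposited tables hold FPKM values calculated by the authors, 1 per gene and library. GRCm38 was the build and TopHat2, Bowtie2 2.2.3 and HISAT2 2.1.0 were among the tools, per the submitters' processing notes, which give no roles. The sources used here do not name the counting tool. The values were whole reads within 0.01 reads for 94.1% to 94.4% of the genes with under 100 reads, using GENCODE M21 lengths, which gave the depths; these cover counting error only. Headers inside the heterozygote files number the replicates differently from the titles, and the titles were used.

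Genes that reached 1 FPKM in 3 or more libraries were compared with limma 3.58.1 (R 4.3.3, mean-variance trend) on log2(FPKM + 1), heterozygote minus wild type, without covariates, with Benjamini-Hochberg adjustment at 0.05. Ratios were compared by exact two-sided permutation (Python 3.11.15, numpy 2.4.6, pandas 2.3.3), coding sequences aligned with Biopython 1.88, and figures drawn with matplotlib 3.10.9. The procedures were tested on simulated data. Alternatives were another pseudocount, no filter, other scalings, voom, an adipocyte covariate, a replicate block and each library left out.

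The members and lists were chosen with earlier results of these data known. Named were all members, the 9 ratios to Myh11, the 8 other ratios with the largest differences among those without overlap, the 8 genes of the nearest profile and up to 6 genes of smallest p per list. Acta2 to Cnn1, Actg2 to Acta2, Srf and Myocd were added after their values were seen. A value of 1 list gene is not reported here.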

Additional observations from a re-analysis of the deposited data

How the results depend on the processing

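With each library left out in turn, the count of genes called by limma ran from 0 to 1 and the number of contractile ratios with separate groups from 13 to 22; no called gene was a member. Of 150 member values under 15 alternatives, 0 passed the threshold and 15 changed sign. Over the fits without 1 library the log2 fold change ran from -0.37 to 0.22 for Acta2, -0.30 to 0.19 for Actg2, -0.37 to 0.18 for Cnn1, -0.10 to 0.32 for Smtn, -0.20 to 0.14 for Lmod1, -0.23 to 0.16 for Mylk and -0.12 to 0.25 for Myl6, and the log2 difference of Myl9 to Myh11 from -0.0532 to 0.0655. Without a change of sign it ran from 0.02 to 0.48 for Myh11, 0.04 to 0.55 for Myl9 and -0.37 to -0.0043 for Tagln. Quantile normalization turned Acta2 to 0.0203 and median scaling turned Myl6 to -0.0092. With the white adipocyte level as a covariate Smtn was -0.0001201 and Myl6 -0.0693; the cause was not tested. That covariate gave the smallest limma adjusted p of any member, 0.267 for Cnn1.

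The labels do not say whether the replicate numbers pair the libraries. Deviations of same-numbered libraries from their group means correlated at 0.508, -0.0877 and -0.342, and those of heterozygote replicate 2 and wild-type replicate 3 at 0.551. These correlations cannot decide whether a pairing exists, because any other difference between libraries also enters them. With the replicate number as a block 0 genes passed in limma, and 17 ratios had the same sign in every numbered pair, where the smallest possible exact p is 0.25. With 3 libraries a group and 1 heterozygote library apart from the rest, the differences seen in the members did not pass gene by gene in limma.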
